A study of Homo sapiens with 8 samples.

Results

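The distal long arm of chromosome 4, from 150 to 180 Mb (hg19), was the part of the H3K27me3 landscape described here. The data were ChIP-seq islands of the mark in 2 human lymphoma B-cell lines. LY19WT is labelled as carrying wild-type EZH2. LY19Y646F is labelled as expressing EZH2-Y646F constitutively from a CMV promoter. Both lines were untreated and at passages 10 to 15, and each gave 3 ChIP libraries and 1 input library. The ChIP libraries of a line were merged before enriched islands were called, so each line is represented by 1 list and no value has an error between replicates. Members were all islands of either list with a midpoint in the segment, 557 of 105576. LY19WT had 506 of them and LY19Y646F had 51. No island lay at either bound, since LY19WT had none from 148509601 to 152083800 or from 178700201 to 181500200, and LY19Y646F none from 148988201 to 153606800 or from 171056001 to 190470000. The segment was selected on the number of islands in these same lists, so the counts and overlaps of the lines within it are given as descriptions and no test was made.

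H3K27me3 is written by Polycomb repressive complex 2, whose catalytic subunit is EZH2, and is read as a mark of silenced chromatin. Its domains range from narrow ones at start sites to broad blankets over inactive chromatin. Substitutions of the mutated tyrosine in the SET domain of EZH2 recur in germinal-centre lymphoma and favour the step from the dimethylated to the trimethylated state. The distal long arm of chromosome 4 is known to carry HAND2, a transcription factor of heart and limb development, VEGFC, a growth factor of lymphatic vessels, and SFRP2, a secreted WNT antagonist. It also carries the glycine receptor subunits GLRB and GLRA3, the glutamate receptor subunit GRIA2, and the neuropeptide Y receptors NPY1R, NPY2R and NPY5R. FBXW7, a ubiquitin ligase subunit, LRBA, which is needed for normal B-cell function, and the innate receptor TLR2 lie on this arm as well. All 57 genes of 4 lists drawn up for the arm matched chromosome 4 in the RefSeq gene table, whose build is GRCh38.p14. The islands are on hg19, so no gene was assigned to a kept or a lost island, and islands are named here by position.

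LY19WT islands were spread over much of the segment, and few had a counterpart in LY19Y646F. An island is called kept where it overlapped an island of the other line by at least 1 bp, and lost where a LY19WT island had no such overlap in the LY19Y646F list. Of the 506 LY19WT islands, 19 were kept (3.75%) and 487 were lost. Over all chromosomes, 39.1% of LY19WT islands were kept. The rest of chromosome 4 stood close to the segment, with 133 of 1948 LY19WT islands kept (6.83%), and chromosomes 14 and 15 lay between, with 638 of 3516 (18.1%). LY19WT islands covered 4.45 Mb, or 14.8% of the segment, and LY19Y646F islands covered 0.286 Mb, or 0.954%. The lines shared 84.6 kb, which was 1.90% of the LY19WT length and 29.6% of the LY19Y646F length. A lost island has no measured LY19Y646F value, since the lists give reads only inside islands, and the mark can lie there below the calling threshold.

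**Figure D1:**
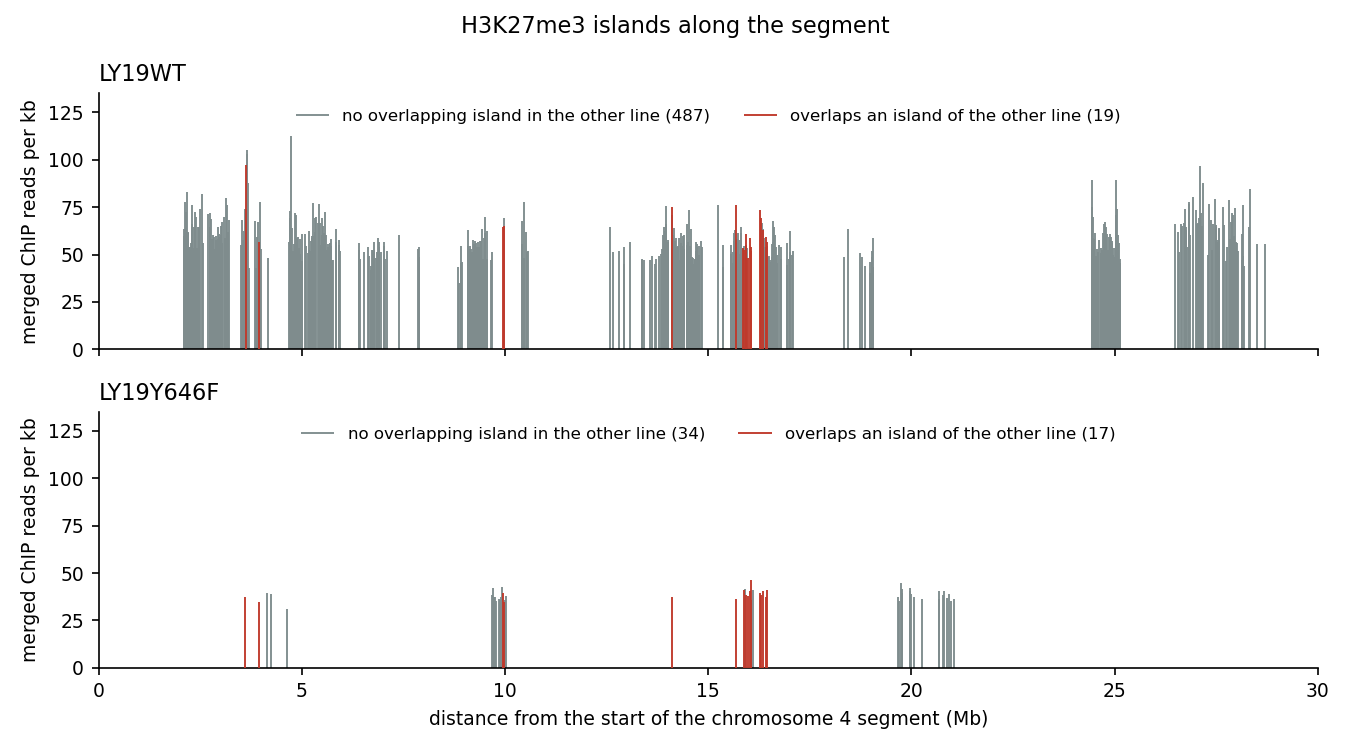
Merged ChIP reads per kb (y axis) of each island against the distance of its midpoint from the start of the segment in Mb (x axis), with LY19WT above and LY19Y646F below. Each line is 1 island, red where it overlaps an island of the other line and grey where it does not; 19 LY19WT and 17 LY19Y646F islands are red.

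The LY19Y646F islands were gathered in a few places. Joining islands across gaps of at most 1 Mb, a distance chosen after the values were seen, gave 5 groups. They ran from 153606801 to 154638200 (5 islands), from 159682201 to 160022400 (13), at 164092801 to 164101000 (1), from 165683801 to 166439000 (14) and from 169667201 to 171056000 (18). Outside these groups LY19Y646F had no island in the segment. Most lost LY19WT islands lay far from any of them: 418 of 487 were more than 100 kb from the nearest LY19Y646F island, with a median distance of 663 kb. Another 7 came within 5 kb without touching one. Large distances go with the selection of the segment on its few LY19Y646F islands, and the same share over all chromosomes was not computed.

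The group from 165683801 to 166439000 held 14 of the 19 kept islands. In these 755 kb LY19WT had 38 islands and LY19Y646F had 14, of which 12 overlapped a LY19WT island. Coverage was 32.9% in LY19WT and 12.2% in LY19Y646F. Kept and lost LY19WT islands alternated along it, so overlap was partial even where both lines carried the mark. The longest LY19Y646F island of the segment lay here, from 165914001 to 165934000, with 766 ChIP and 206 input reads over 20 kb. It spanned 2 LY19WT islands of 11.2 and 4.0 kb.

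The kept LY19WT island of highest ChIP density lay in the first group. The island from 153592601 to 153635000 was 42.4 kb wide with 4114 ChIP reads, or 97.0 per kb (95% Poisson interval 94.1 to 100.04), and an authors' fold of 3.94. With the next 3 islands, separated by gaps of 1.2 to 2.6 kb, it made a stretch of 92.4 kb ending at 153685000, in which ChIP density ran from 87.7 to 105 reads per kb and the authors' fold from 3.51 to 4.43. LY19Y646F had 1 island in this stretch, from 153606801 to 153612400, with 210 ChIP reads over 5.6 kb, or 37.5 per kb. That island lay wholly inside the first LY19WT island and covered 13.2% of it, and the next 3 LY19WT islands had no counterpart. High LY19WT density and a LY19Y646F counterpart thus went together for 1 of the 4 islands.

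The other groups differed in what LY19WT had there. From 159682201 to 160022400 LY19Y646F was the more covered line, at 22.0% against 4.94%, with 13 islands against 4, and 2 of each line overlapped. The lone LY19Y646F island from 164092801 to 164101000 lay inside a LY19WT island of 20 kb that ran from 164090601 to 164110600. The last group, from 169667201 to 171056000, had 18 LY19Y646F islands over 6.37% of its length and no LY19WT island at all. It fell within a LY19WT gap of 5.37 Mb, from 169057801 to 174431200, and its LY19Y646F islands had a ChIP density of 35.2 to 44.6 reads per kb and a median input density of 8.67.

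**Figure D2:**
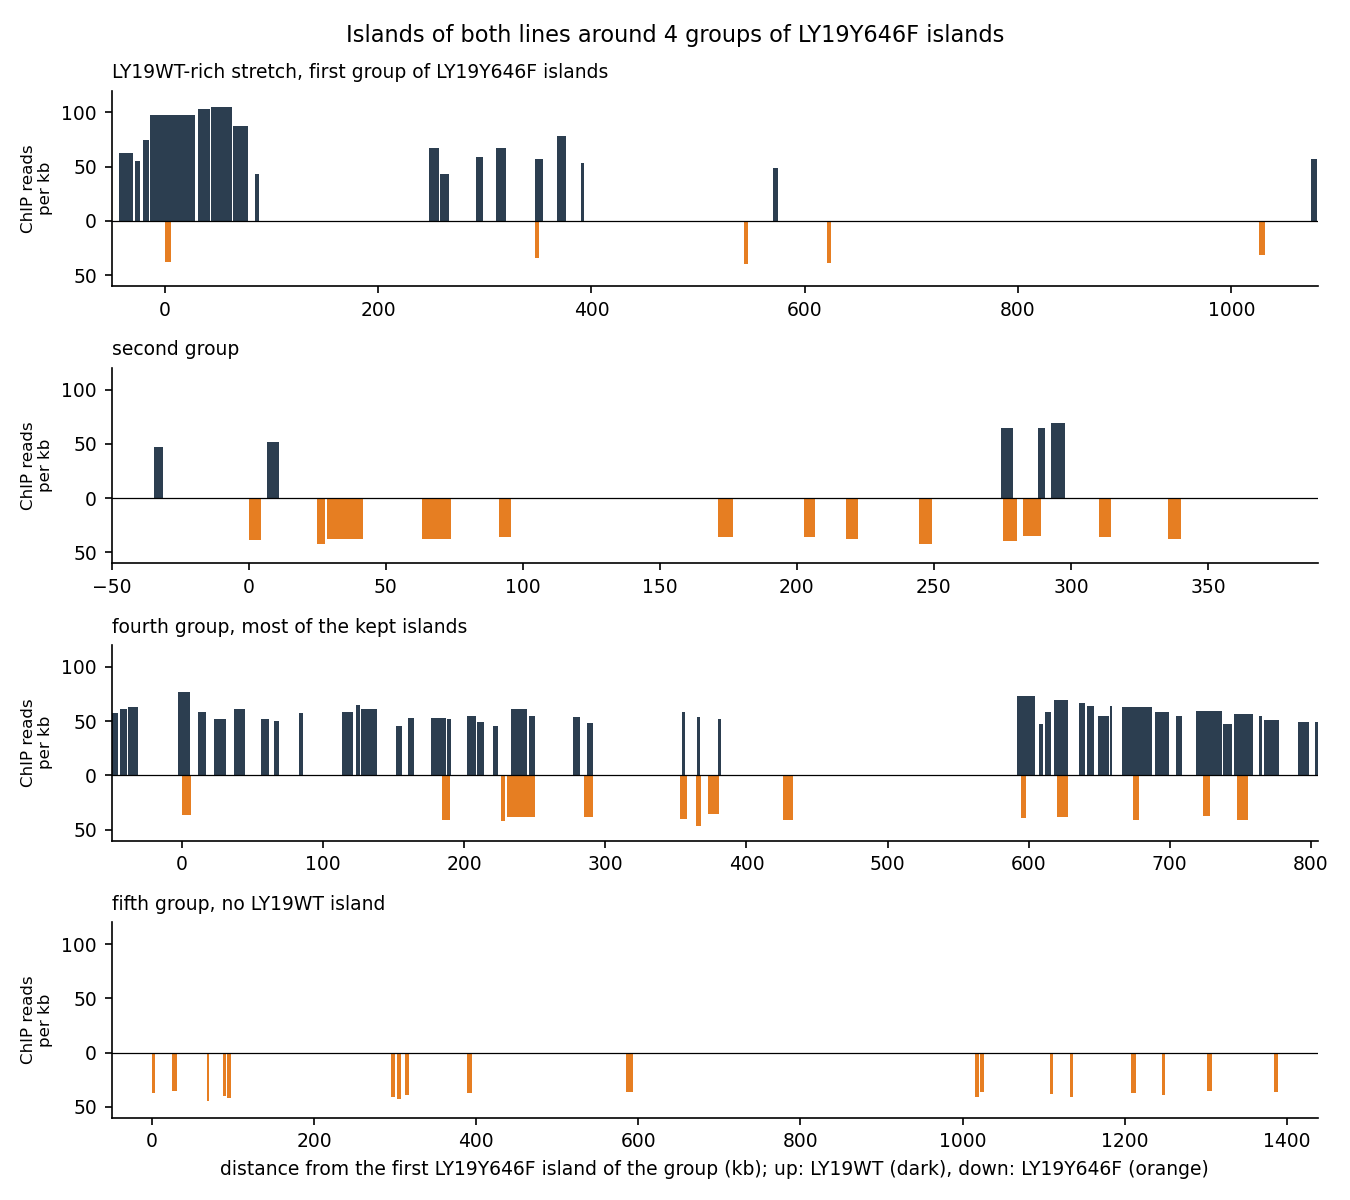
Islands around 4 of the 5 groups, drawn to scale against the distance in kb from the first LY19Y646F island of each group (x axis, a different range in each panel). Height is merged ChIP reads per kb, upward for LY19WT (dark) and downward for LY19Y646F (orange); the first panel shows the LY19WT domain of 87.7 to 105 reads per kb above a single LY19Y646F island, and the last shows 18 LY19Y646F islands and no LY19WT island.

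Between the groups lay long stretches with LY19WT islands alone. From 150000001 to 153606800 LY19WT had 70 islands, which covered 22.2% and all lay from 152083801 on. From 154638201 to 159682200 it had 145, which covered 20.4%. Sparser LY19WT islands filled the stretches before the third group (37 islands, 5.09%) and before the fifth (43 islands, 6.83%). The 1.58 Mb before the fourth group held 49 islands and were covered to 21.7%. After the last group LY19Y646F had no island for 19.4 Mb, up to 190470000. LY19WT had 106 islands in the part of this gap that lies in the segment and covered 15.8% of it. These islands all lay between 174431201 and 178700200.

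Kept LY19WT islands were somewhat wider and denser than lost ones, with wide overlap. Width was 1.8 to 42.4 kb in the 19 kept islands, with a median of 8.0 kb (quartiles 3.5 and 13.2). The 487 lost islands ranged from 0.4 to 125 kb, with a median of 5.4 kb (3.6 and 10.4). Raw ChIP density was 48.4 to 97.0 reads per kb in kept islands, median 59.3 (54.4 and 67.2), and 35.2 to 112.5 in lost islands, median 55.4 (50.6 and 62.4). The ranges of kept islands lay inside those of lost islands for both measures. Over all chromosomes the same order was seen, with median widths of 7.6 kb in kept and 5.0 kb in lost islands, and densities of 61.6 and 55.3 reads per kb. A wider island meets another by 1 bp more easily, and the part of this in the difference in width was not tested. Since 14 of the 19 kept islands lay in 1 group of 755 kb, kept and lost islands also differed in place. The part of place was not tested either.

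**Figure D3:**
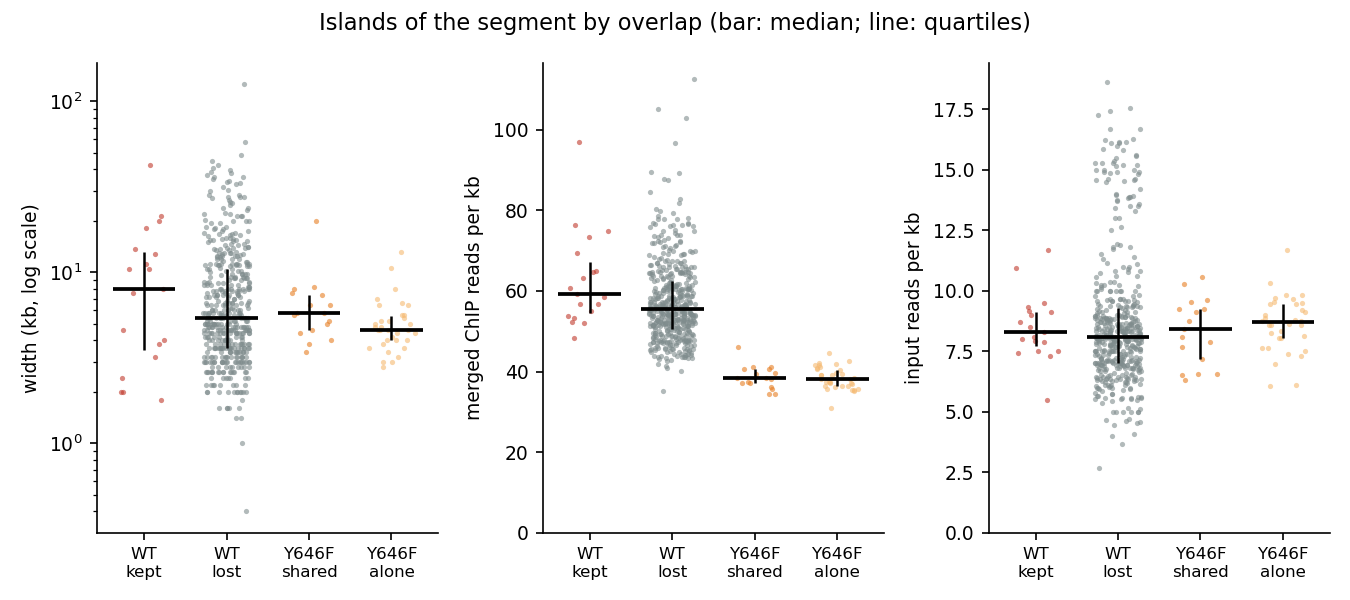
Width in kb (left, log scale), merged ChIP reads per kb (centre) and input reads per kb (right) of each island of the segment, for LY19WT islands kept (19) and lost (487) and LY19Y646F islands that overlap LY19WT (17) or stand alone (34). The horizontal bar is the median and the vertical line spans the quartiles; kept and lost LY19WT islands overlap in all panels, and both LY19Y646F classes have a ChIP density near 38 reads per kb.

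Within each class of width or density few islands of the segment were kept. Of LY19WT islands up to 5 kb wide, 8 of 240 were kept (3.33%), against 28.9% of that class over all chromosomes. Of those of 5 to 10 kb, 2 of 131 were kept (1.53%), against 38.7%. In the class of 10 to 20 kb it was 7 of 93 (7.53%), against 50%. Of those wider than 20 kb, 2 of 42 were kept (4.76%), against 67.3%. The kept share of the segment did not rise steadily with width. In the densest of 4 classes of equal size, above 62.9 ChIP reads per kb, 8 of 127 were kept (6.30%), against 57.5% of islands of that density over all chromosomes. In the least dense class, up to 50.9 reads per kb, 1 of 127 was kept (0.787%), against 24.4%. The kept share was below that of all chromosomes in each of these classes. This follows from the selection of the segment on its few LY19Y646F islands. The part of width or density in the low share was not tested.

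Raw input density, in input reads per kb, differed little between kept and lost LY19WT islands outside 1 stretch. Its median was 8.30 reads per kb in kept islands (quartiles 7.70 and 9.14), against an autosomal median of 8.41 in LY19WT. In the 427 lost islands outside 176 to 179 Mb it was 7.90 (6.92 and 8.67). In all 487 lost islands it was 8.07 (7.0 and 9.30). LY19Y646F islands of the segment had a median of 8.64 (7.65 and 9.46), or 1.03 times the autosomal median of that line. On the rest of chromosome 4 the LY19Y646F median was 6.61 reads per kb, or 0.785 times. The LY19Y646F value rests on 51 islands in 5 groups and does not speak for the stretches between them.

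From 176 to 179 Mb the input of LY19WT was higher than elsewhere in the segment. The 60 LY19WT islands there, all lost, had 10.7 to 18.6 input reads per kb, with a median of 14.9, or 1.77 times the autosomal median. The 33 islands from 174 to 175 Mb had a median of 8.21 reads per kb, and the 13 from 175 to 176 Mb one of 7.98. No LY19WT island lay between 175134801 and 176482400, so the change fell in that gap. ChIP density in these 60 islands was 65.3 reads per kb at the median, against 54.4 in the other 427 lost islands, and the authors' fold was 1.40 against 2.31. Their median width was 13.7 kb against 5.0 kb. With no LY19Y646F island there, the input of that line in this stretch is not measured by the lists. Without these 60 islands 19 of 446 LY19WT islands were kept (4.26%).

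**Figure D4:**
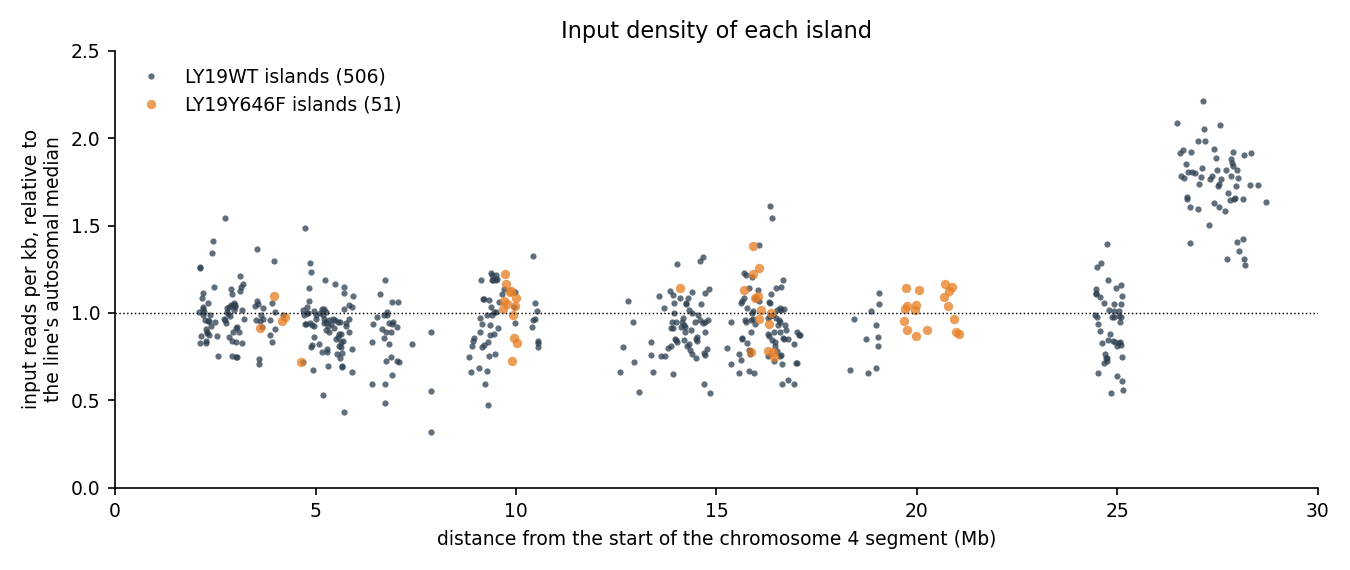
Input reads per kb of each island, relative to the median over autosomal islands of the same line (y axis), against the distance from the start of the segment in Mb (x axis). Dark points are the 506 LY19WT islands and orange points the 51 LY19Y646F islands; LY19WT points from 176 to 179 Mb of the chromosome lie between 1.27 and 2.21, and LY19Y646F points lie between 0.721 and 1.39.

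The widest lost islands came from 2 places. The widest ran from 176868601 to 176993800, spanned 125 kb and held 10070 ChIP and 1898 input reads, with an authors' fold of 1.73 (95% counting interval 1.64 to 1.81). The third and the fourth, from 177298001 to 177346600 and from 177437001 to 177481600, lay in the same stretch of high input and had folds of 1.67 and 1.63. The second and the fifth, from 152467601 to 152525200 and from 152373001 to 152415400, lay close together near the start of the segment at input densities of 7.99 and 7.78 reads per kb. Their folds were 3.01 (2.73 to 3.32) and 2.92 (2.61 to 3.28), and the nearest LY19Y646F islands were 1082 and 1191 kb away. Broad islands without a counterpart were therefore found both where LY19WT input was high and where it was near its autosomal median.

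Among the densest lost islands, the first was 0.4 kb wide with 45 ChIP and 5 input reads, from 154729401 to 154729800, and its density of 112.5 reads per kb has a 95% Poisson interval of 82.1 to 150.5. The second and the third, at 105 and 103 reads per kb, belonged to the domain that ends at 153685000. The fourth ran from 177089201 to 177116600 at 96.8 reads per kb and 15.4 input reads per kb. The fifth, from 174431201 to 174439000, was 7.8 kb wide with 698 ChIP reads, or 89.5 per kb, and 65 input reads, an authors' fold of 3.49 (2.71 to 4.58). It was the first LY19WT island after the gap of 5.37 Mb, 3375 kb from the nearest LY19Y646F island.

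At kept islands the LY19Y646F counterpart had a lower raw ChIP density in every pair. The 19 kept islands met 17 different LY19Y646F islands, since 2 of these touched 2 LY19WT islands each. ChIP density ran from 48.4 to 97.0 reads per kb in LY19WT, median 59.3, and from 34.5 to 46.2 in LY19Y646F, median 38.3, so the ranges did not overlap. Raw densities carry the depth of the merged libraries and are not levels of the mark. Each density and fold of a pair is taken over the whole island of its own line, not over the shared stretch. In only 8 of the 19 pairs did the overlap reach 50% of both islands. Input density of the pairs had medians of 8.30 and 8.41 reads per kb. The authors' fold, a linear ratio of ChIP to input reads scaled by 1 constant per list, was 1.5 to 3.94 in LY19WT (median 2.33) and 1.42 to 2.49 in LY19Y646F (median 1.68).

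On the fold scale 15 of the 19 pairs were lower in LY19Y646F, with a median log2 ratio of LY19Y646F to LY19WT of -0.26 (quartiles -0.78 and -0.13). The 95% counting intervals of the folds, exact and for counting error only, stood apart in 5 pairs, all with LY19WT higher, and overlapped in 14. Scaling ChIP density by total ChIP reads in the islands of each list turned the median to 0.44, with 18 of 19 pairs higher in LY19Y646F. The direction at kept islands therefore depends on the scale, and no external standard was used here.

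The pairs varied in how the islands sat on each other. In 8 pairs the LY19Y646F island lay wholly inside the LY19WT island, and in 9 pairs the LY19WT island was the narrower. The share of the kept LY19WT island that was covered ran from 13.2% to 100%, with a median of 55.9%. Of the 5 pairs whose fold intervals stood apart, 2 were the LY19WT islands under the 20 kb LY19Y646F island from 165914001 to 165934000. At 153592601 to 153635000 the folds were 3.94 (3.52 to 4.41) in LY19WT and 1.86 (1.34 to 2.65) in LY19Y646F. At 164090601 to 164110600 the folds were 2.66 (2.28 to 3.12) and 1.47 (1.15 to 1.91), and at 165681201 to 165689200 they were 2.72 (2.13 to 3.52) and 1.45 (1.09 to 1.95). These last 3 LY19WT islands were also the 3 densest of the kept ones.

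At the other kept islands named here the fold intervals overlapped, which does not show that the folds were equal. The islands from 166275401 to 166288200 and from 166301601 to 166312000 had LY19WT folds of 3.21 and 3.09 and LY19Y646F folds of 2.29 and 1.86. At 166349801 to 166371000 the folds were 2.2 (1.89 to 2.57) and 1.85 (1.29 to 2.71). At 166402401 to 166420600 they were 2.33 (1.96 to 2.78) and 2.18 (1.47 to 3.32). The island from 166429201 to 166442800 had 2.46 (2.0 to 3.05) in LY19WT and 2.49 (1.83 to 3.45) in LY19Y646F, on a counterpart of 7.6 kb with 313 ChIP reads. At these last 3 islands LY19WT was 13.6 to 21.2 kb wide and its counterpart 4.4 to 7.6 kb. They are among the 5 widest kept LY19WT islands, so this difference in width goes with how they were chosen. Over all 19 pairs the LY19WT island was the wider in 10 and the narrower in 9.

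**Figure D5:**
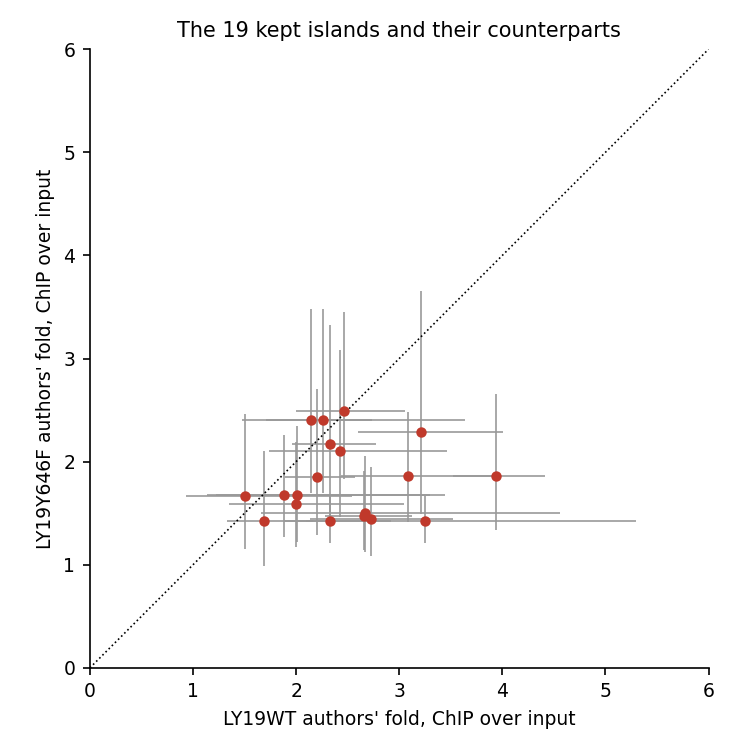
Authors' fold of ChIP over input in LY19WT (x axis) and in the LY19Y646F island of longest overlap (y axis) for the 19 kept islands, with exact 95% counting intervals as bars and the line of equality dotted. Of the points, 15 lie below the line, and 2 LY19Y646F islands appear in 2 points each.

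Seen from LY19Y646F, 17 of 51 islands of the segment (33.3%) overlapped a LY19WT island, against 56.5% of LY19Y646F islands over all chromosomes and 44.5% on the rest of chromosome 4. Under a stricter rule, overlap over at least 50% of each island, 8 of 51 counted (15.7%), close to the 17.6% of all chromosomes. For LY19WT the same rule gave 8 of 506 (1.58%) against 14.4%. LY19Y646F islands with and without a counterpart had median densities of 38.3 and 38.1 ChIP reads per kb and median widths of 5.8 and 4.6 kb. Their folds had medians of 1.68 and 1.78.

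The 34 LY19Y646F islands without a counterpart fell into near and far ones. Of these, 16 lay within 100 kb of a LY19WT island and 18 lay more than 500 kb away. The widest, from 159710801 to 159724000, had 492 ChIP and 136 input reads over 13.2 kb and an authors' fold of 1.38 (1.14 to 1.68), 17.4 kb from the nearest LY19WT island. The second, from 159745401 to 159756000, was 10.6 kb wide at a fold of 1.46 (1.17 to 1.83). The third and the fifth, from 170252401 to 170260400 and from 170055801 to 170062400, belonged to the group with no LY19WT island and had folds of 1.82 (1.38 to 2.44) and 1.49 (1.13 to 2.0). The fourth, from 166109601 to 166116600, had a fold of 1.83 (1.38 to 2.46) and lay 43.8 kb from the nearest LY19WT island. As a whole the LY19Y646F islands of the segment were somewhat less dense than those of all chromosomes, with medians of 38.3 and 41.8 ChIP reads per kb and of 1.78 and 1.90 in fold. The lower density was not particular to the segment. LY19Y646F medians were 39.4 on the rest of chromosome 4 and 39.0 on chromosomes 14 and 15. Folds were higher in those parts, at 2.24 and 2.31. Their input was 0.785 and 0.76 times the autosomal median, against 1.03 in the segment.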

How the data were processed

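H3K27me3 ChIP-seq of LY19WT and LY19Y646F was represented by 2 deposited island lists. Per the submitters' processing notes, the tools were Bowtie2 2.2.9, SAMtools 1.3.1, SICER and bedtools, on hg19. Per the labels, replicates were merged and islands called against input at an FDR of 0.001. Per the file headers, each island has deposited counts of ChIP and input reads, a fold (a linear ratio) and a p-value with its FDR. Islands held 37556030 ChIP and 4949411 input reads in LY19WT, and 17410034 and 3527109 in LY19Y646F. The fold equals ChIP over input divided by a constant, 3.07 and 2.62. p-values were used only in ranking and FDR limits.

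Positions are 1-based hg19. Overlap, width and reads per kb were computed with pandas 2.3.3, numpy 2.4.6 and scipy 1.17.1 in Python 3.11.15. The overlap code was tried on shortened copies of randomly drawn LY19WT islands, where 100% of planted overlaps were recovered. Counterparts that reach beyond an island were not tried. Pairs join a kept island to the counterpart of longest overlap. Intervals are 95% Poisson for densities and exact binomial (Clopper-Pearson) for folds, for counting error only. Named islands are the 5 widest and the 5 densest kept and lost LY19WT islands and the 5 widest LY19Y646F islands without a counterpart. The segment, lists and rules were chosen with earlier results of these data known. Gene assignment and sequences were not analysed here, since the reference tables are on GRCh38.p14.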

Additional observations from a re-analysis of the deposited data

How the results depend on the processing

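The low share of kept LY19WT islands depended in size on the overlap rule. Its place below that of all chromosomes follows from the selection of the segment on its few LY19Y646F islands. That this place held under the alternatives is therefore a description and no support. It was 2.17% when 50% of the island had to be covered (30.1% over all chromosomes), 1.58% at 50% of both islands (14.4%) and 6.37% with the LY19WT list limited to the covered length of LY19Y646F (52.7%). The share of LY19Y646F islands with a counterpart was 15.7% at 50% of both islands (17.6% over all chromosomes) and 19.6% with the limited LY19WT list (38.6%). Merging islands at most 5 kb apart left 262 LY19WT islands, and an FDR of at most 1e-10 left 30 LY19Y646F islands, by construction fewer. Joined islands gave a kept LY19WT share of 5.73% (15 of 262), against 43.5% over all chromosomes. Scaling by total ChIP reads reversed the log2 ratio of kept pairs, to 0.442, and raw ChIP density with no scaling gave -0.667. The other values computed under alternatives stayed within 1.5 times those reported: an FDR of 1e-05, segments of 150 to 170 Mb or 140 to 180 Mb, overlap within 5 kb, and 150 to 176 Mb, added after seeing the data, kept the order of kept and lost islands where it was computed. Gene positions could not be tried without an hg19 annotation. No paired analysis was possible because replicates were merged before islands were called. The smallest LY19WT island here has 45 ChIP and 5 input reads, and the part of depth in the calling of narrow islands was not tested.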

Other observations

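The stretches on both sides of the segment held islands mostly of 1 line. Overlap was possible only from 145 to 150 Mb, since elsewhere below 1 of the lists had no island. From 120 to 130 Mb of chromosome 4 LY19WT had 138 islands and LY19Y646F had none. From 130 to 145 Mb LY19WT had none, while LY19Y646F had 16 islands between 139794201 and 144928600, at 34.5 to 44.6 ChIP reads per kb. From 145 to 150 Mb the numbers were 53 and 4, and none overlapped. The kept share of LY19WT islands was 6.83% on the chromosome outside the segment and 39.1% over all chromosomes. From 180 to 190 Mb LY19WT had 170 islands at 0.951 times its autosomal input, and LY19Y646F had none. From 190 to 192 Mb, at the end of the arm, LY19Y646F had 5 islands of 6.8 to 65.6 kb and LY19WT had none. Input density over these 5 was 2.30 to 3.10 times the autosomal median of LY19Y646F, ChIP density 58.3 to 75.1 reads per kb and the median authors' fold 1.15.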
